A study of Mus musculus with 6 samples.

Results

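The genes described here move the transmitter glutamate and its precursor glutamine across membranes or convert them. They are 9 genes taken by name: the plasma membrane glutamate transporters Slc1a1, Slc1a2 and Slc1a7, the vesicular transporter Slc17a7, the enzymes Glud1, Got1 and Got2, and the glutamine transporters Slc38a1 and Slc38a3. A transcript present in the files of all 6 libraries was found for 8 of the 9, out of 25168 genes that were above 0 in any library. The retinal RNA came from wild type C57BL/6 mice at postnatal week 5. All mice had received NMDA, a glutamate receptor agonist that damages retinal ganglion cells. In the NMDA + SCF group (3 libraries) recombinant SCF, the stem cell factor that binds the receptor c-kit, was injected into the vitreous 2 days after NMDA. In the NMDA + PBS group (3 libraries) the labels name NMDA exposure only, and PBS as the second injection is taken from the study's methods. The comparison asks which transcripts differ in the injured retina when SCF is added. There was no retina without NMDA among these libraries.

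Glutamate is the transmitter of photoreceptors, bipolar cells and ganglion cells, and it is loaded into synaptic vesicles by vesicular transporters. After release it is taken up by plasma membrane transporters of neurons and Müller glia, turned into glutamine in the glia and returned to neurons as glutamine. Aminotransferases and glutamate dehydrogenase connect glutamate to the mitochondrial oxidation of carbon, and excess glutamate at NMDA receptors is toxic to ganglion cells.

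The values are FPKM, fragments scaled to transcript length and to library size, given for single transcripts and summed here per gene. Where 3 values of a group are given, they stand in the order of replicates 1, 2 and 3. FPKM times length came out as whole fragments (within 0.05 of a fragment) for between 99.95 and 99.96% of values. The totals this gives ran from 3404337 to 4440584 fragments per library. The libraries had between 44925938 and 48783182 clean reads. The fragments were 16.9 and 18.2% of the clean read pairs in NMDA + PBS replicates 2 and 3. In the other libraries they were between 14.1 and 15.2%. The files hold different transcript lists. All NMDA + SCF libraries and NMDA + PBS replicate 1 had the same list, called A here, and the other NMDA + PBS libraries (replicates 2 and 3) had another, called B. Transcripts in both lists numbered 46933, and the gene sums use these. A principal component with 53.3% of the variance followed the lists. On it, replicate 1 of NMDA + PBS scored -35.9 and replicates 2 and 3 scored 68.6 and 94.9, while scores with SCF ran from -45.2 to -40.1. Treatment and transcript list therefore cannot be told apart, except against NMDA + PBS replicate 1 alone.

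Retinal markers were present in every library. The 4 rod bipolar markers measured, led by Prkca, summed to 280.0, 253 and 290 FPKM in NMDA + PBS and to 295, 302 and 321 FPKM in NMDA + SCF. The sums did not overlap, but of the 4 genes only Cabp5 separated the groups. Prkca overlapped, with 157.2 FPKM in NMDA + PBS replicate 3 above every NMDA + SCF library, and Trpm1 had a log2 fold change of -0.38 and overlapped. Pcp2 stood at 0 in each NMDA + PBS library and in NMDA + SCF replicate 1. The 7 Müller glia markers measured, led by Glul, summed to 4053, 3061 and 3325 FPKM in NMDA + PBS and to 3308, 3338 and 3145 FPKM in NMDA + SCF, with overlapping groups. Dkk3 held 979.9 and 1007 FPKM of the sums in NMDA + PBS replicates 2 and 3 and at most 0.262 FPKM in any other library. Without it the sums were 4053, 2081 and 2318 FPKM in NMDA + PBS and 3308, 3337 and 3145 FPKM in NMDA + SCF, where NMDA + PBS replicate 1 was highest. The lens markers, led by Crygs, summed over 9 genes to 23.4, 179 and 304 FPKM in NMDA + PBS and to 5114, 459 and 9541 FPKM in NMDA + SCF. These sums did not overlap. Of the 9 genes 5 separated the groups, and none passed an adjusted p of 0.05 in limma. Foxe3 was at 0 in every NMDA + PBS library. The part that cell content of any kind had in the glutamate genes was not tested. In bulk RNA, fewer cells of a type and less RNA per cell cannot be told apart.

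Across all genes, 0 passed an adjusted p of 0.05 in limma (0.0% of 25168), 0 also passed a 2-fold change together with 0.001 as the adjusted p, and voom on recovered fragments called 2 at the first threshold. Unadjusted p-values of at most 0.05 numbered 2325 (9.24%). They were 4331 (17.4%) without NMDA + PBS replicate 1, 1344 (5.45%) without replicate 3 of that group, and 1375 (5.50%), 1281 (5.14%) and 1149 (4.61%) without NMDA + SCF replicates 1, 2 and 3. Leaving out NMDA + PBS replicate 1, the only control library of list A, gave 909 genes at an adjusted p of 0.05 and 192 past both limits. Among the 8 glutamate genes tested, 0 passed an adjusted p of 0.05 and 2 had an unadjusted p of at most 0.05, Slc1a7 (higher in NMDA + SCF) and Slc1a2 (lower). That number was 5 with NMDA + PBS replicate 1 left out, in the fit with 17.4% of all genes, and 1 when NMDA + PBS replicate 3 or NMDA + SCF replicate 2 or 3 was left out, and voom called 0 of the 8 at an adjusted p of 0.05. Every NMDA + SCF library lay above every NMDA + PBS library for 3 members, Slc1a7, Got1 and Got2, a pattern found in 7.62% of all genes, and below for 1, Slc38a1, as in 6.45% of all genes. With median-of-ratios scaling 2 of these 4 remained without overlap, Slc1a7 and Slc38a1. Under that scaling 12.9% of all genes had groups without overlap, against 14.1% before it. For 3 libraries against 3 a two-sided exact permutation test cannot give a p below 0.1. The median log2 fold change was 0.31 over the 8 genes and -0.01 over all genes. The members were taken by name with earlier results of these data known, so no weight is put on these counts. The labels do not say that libraries came from separate animals, and p-values measure the spread between these libraries, which may be technical.

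**Figure D1:**
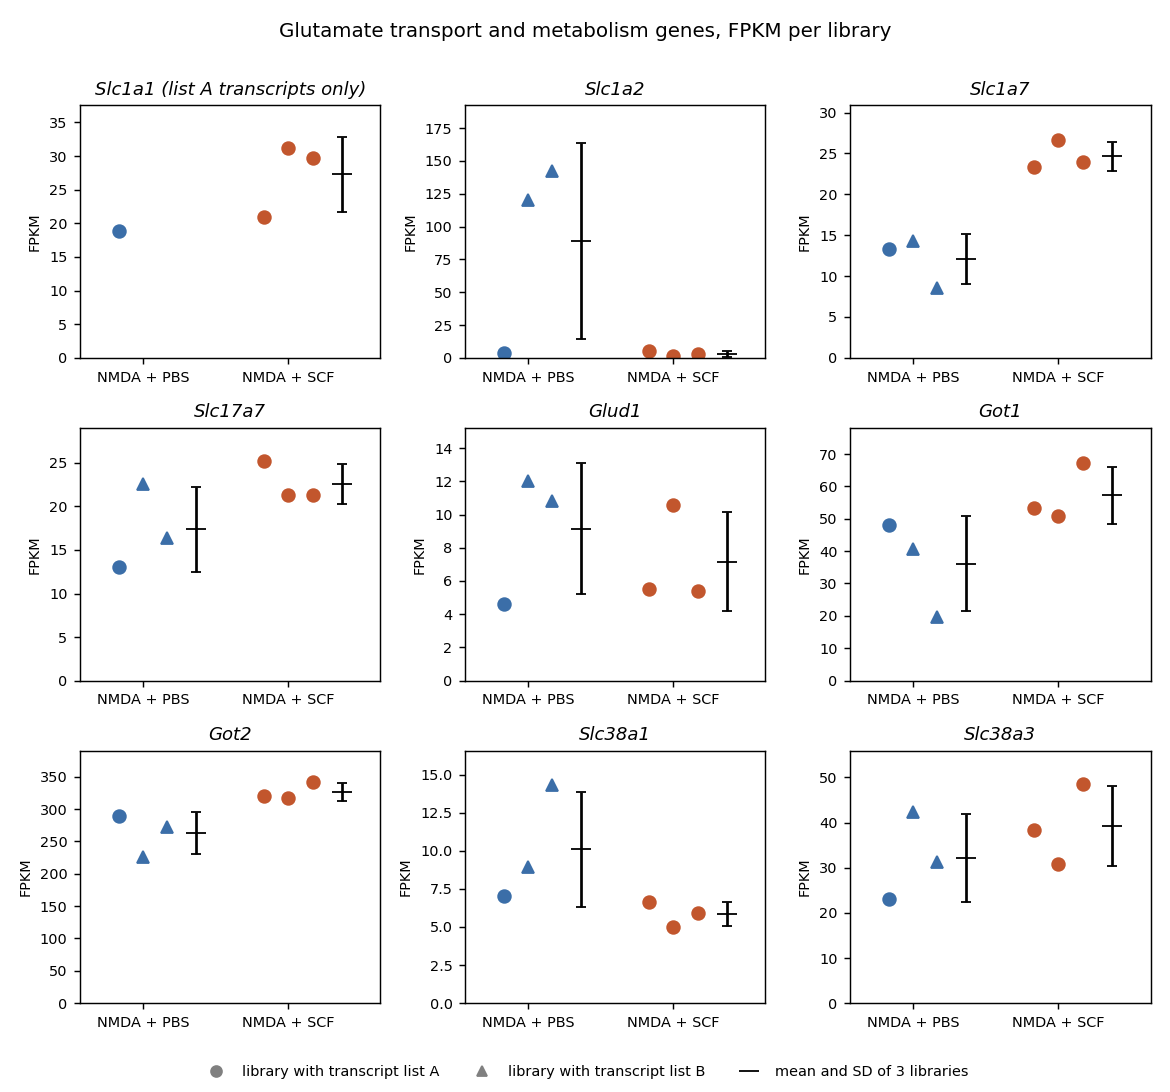
FPKM (vertical axes, from 0) of each glutamate gene in the 3 NMDA + PBS (blue) and 3 NMDA + SCF (orange) libraries, with circles for transcript list A, triangles for list B, and black bars for mean and SD. Slc1a7 lay between 8.59 and 14.3 FPKM in NMDA + PBS and between 23.3 and 26.7 in NMDA + SCF, while Slc1a2 was high only in the list B libraries.

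Slc1a7 encodes a glutamate transporter that is enriched in photoreceptors and bipolar cells, where it acts at their terminals. On chromosome 4 of GRCm38 (chr4:107968332-108013532, plus strand), it had 13.3, 14.3 and 8.59 FPKM in NMDA + PBS against 23.3, 26.7 and 23.9 FPKM in NMDA + SCF. Every NMDA + SCF library lay above every NMDA + PBS library, including replicate 1 of the same transcript list. NMDA + PBS averaged 12.1 ± 3.04 FPKM and NMDA + SCF 24.6 ± 1.76 FPKM (SD, n = 3 each). Its log2 fold change was 1.0 ± 0.23 (SE). This value is on the log2(FPKM + 1) scale, which understates the change of low genes. The same holds for all log2 fold changes here except those from voom or with another pseudocount named. The adjusted p was 0.535 in limma, so the difference did not pass the threshold over all genes. The value rested on 72 to 108 fragments in NMDA + PBS and 152 to 175 in NMDA + SCF. At least 94.9% of it in every library came from 1 transcript, ENSMUST00000124190, annotated as a retained intron and spanning the 3' end of the gene (chr4:108010017-108013526). This transcript had 12.6, 14.1 and 8.59 FPKM in NMDA + PBS and 23.1, 26.7 and 23.8 FPKM in NMDA + SCF, while the protein-coding ENSMUST00000106713 was at 0.684 FPKM or less in every library. So the difference was measured on a transcript annotated as non-coding, and the coding transcript was hardly counted. The span of the first lies inside that of the coding transcript. Whether fragments of the coding RNA were counted on it was not tested.

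Slc17a7 encodes the vesicular glutamate transporter of photoreceptors and bipolar cells. Its values were 13.1, 22.6 and 16.4 FPKM in NMDA + PBS and 25.3, 21.3 and 21.3 FPKM in NMDA + SCF. NMDA + PBS replicate 2 lay above NMDA + SCF replicates 2 and 3, so the groups overlapped. The log2 fold change was 0.39 ± 0.23 (SE), and limma gave an adjusted p of 0.597. It was 0.22 without NMDA + PBS replicate 1, 0.59 without replicate 2 of that group and 0.74 against replicate 1 alone. Only retained-intron transcripts of Slc17a7 were in both lists. ENSMUST00000211652 (chr7:45169901-45176139) had 6.96, 10.9 and 2.92 FPKM in NMDA + PBS and 14.7, 11.9 and 11.1 FPKM in NMDA + SCF, with no overlap, and ENSMUST00000210498 (chr7:45168950-45171295) had 6.13, 11.7 and 13.4 FPKM against 10.6, 9.43 and 10.2 FPKM. So the first lay above NMDA + PBS in every NMDA + SCF library, and the second overlapped. The coding transcript ENSMUST00000085374 was in list A only, with at most 1 fragment in a library.

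Slc1a2 encodes the main glial glutamate transporter of the brain, which in the retina is also made by cones and bipolar cells. It lies at chr2:102658659-102790784 and had 3.98, 120.4 and 143 FPKM in NMDA + PBS against 5.40, 1.13 and 2.69 FPKM in NMDA + SCF. The high values were those of the list B libraries, and NMDA + PBS replicate 1 lay within the range of the NMDA + SCF libraries. The log2 fold change was -3.59 ± 1.23 (SE), and limma gave an adjusted p of 0.535. Set against NMDA + PBS replicate 1 alone, by a term for the transcript list, it was -0.43, a value with no test. The coding transcript ENSMUST00000080210 carried the split. It had 1 fragment in NMDA + PBS replicate 1 and at most 3 in an NMDA + SCF library, but 5362 and 7183 fragments in NMDA + PBS replicates 2 and 3. In list A libraries most of the low value came from the processed transcripts ENSMUST00000125085, ENSMUST00000128622 and ENSMUST00000145921, each with at most 2 fragments in any library. Without NMDA + PBS replicate 1 the log2 fold change of Slc1a2 was -5.16 with an adjusted p of 0.00200 (limma), and all NMDA + PBS libraries then had list B and all NMDA + SCF libraries list A.

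Such a split by list was counted over all genes after its form was seen in Slc1a2. Both list B libraries were at least 10 times every list A library, with at least 5 FPKM, in 219 of 25168 genes (0.87%), and the reverse held in 86 genes (0.342%). Slc1a2 was the one member of this kind.

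Slc1a1 encodes the neuronal glutamate transporter. Its transcripts were in list A only, so it has no value in NMDA + PBS replicates 2 and 3 and no test. Summed over list A transcripts it had 18.9 FPKM in NMDA + PBS replicate 1 and 20.9, 31.1 and 29.7 FPKM in NMDA + SCF. All NMDA + SCF libraries lay above the single control library, the nearest of them by a small margin. Within list A, 7 of the 9 genes had every NMDA + SCF library above NMDA + PBS replicate 1 and 1, Slc38a1, had every one below it. Of 25624 genes of that list above 0, 24.2% had every NMDA + SCF library above and 24.7% below, and 1 control library allows no test. These counts use FPKM without further scaling. With median-of-ratios scaling, NMDA + SCF replicate 2 lay below NMDA + PBS replicate 1 for Got1 (48.4 against 50.9) and Got2 (302 against 307).

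Got1 and Got2 encode the cytosolic and the mitochondrial aspartate aminotransferase, which interconvert glutamate and aspartate in the malate-aspartate shuttle. Got1 (chr19:43499752-43524605, minus strand) had 48.0, 40.6 and 19.6 FPKM in NMDA + PBS and 53.5, 50.8 and 67.3 FPKM in NMDA + SCF. The groups did not overlap, and NMDA + PBS replicate 3 was the lowest library. NMDA + PBS averaged 36.1 ± 14.7 FPKM and NMDA + SCF 57.2 ± 8.83 FPKM (SD, n = 3 each). The log2 fold change was 0.73 ± 0.33 (SE), and limma gave an adjusted p of 0.539. Leaving out NMDA + PBS replicate 3 gave 0.35, and it was 0.24 against NMDA + PBS replicate 1 alone. Got2 (chr8:95864134-95888547, minus strand) was the most abundant of the 9 genes, at 290.0, 227 and 273 FPKM in NMDA + PBS and 320.1, 317 and 343 FPKM in NMDA + SCF. Its groups did not overlap. NMDA + PBS averaged 263 ± 32.8 FPKM and NMDA + SCF 327 ± 13.9 FPKM (SD, n = 3 each). The log2 fold change was 0.32 ± 0.18 (SE), and limma gave an adjusted p of 0.582. It was 0.19 with upper quartile scaling and 0.17 against NMDA + PBS replicate 1 alone. With median-of-ratios scaling the groups overlapped for both genes. Coding transcripts carried both. Got1 ENSMUST00000026196 held between 72.9 and 96.6% of its gene, at 46.4, 37.1 and 14.3 FPKM in NMDA + PBS and 50.2, 48.03 and 63.7 FPKM in NMDA + SCF, and the processed transcript ENSMUST00000124954 overlapped at 1.63 to 5.32 and 2.79 to 3.61 FPKM. Got2 ENSMUST00000034097 held between 92.5 and 96.9%, at 280.5, 209.7 and 261 FPKM in NMDA + PBS and 309, 307 and 331 FPKM in NMDA + SCF. Neither coding transcript overlapped. Fragments of Got2 could have been shared with processed pseudogene copies by the authors' counting, which makes its level uncertain.

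Glud1 encodes the mitochondrial glutamate dehydrogenase. Its coding transcripts were in neither list, and the values below come from non-coding transcripts with 12 to 38 fragments per library. They were 4.62, 12.02 and 10.8 FPKM in NMDA + PBS and 5.51, 10.6 and 5.37 FPKM in NMDA + SCF, with overlapping groups. The log2 fold change was -0.28 ± 0.40 (SE), and limma gave an adjusted p of 0.807. Leaving out single libraries moved it from -0.67, when control replicate 1 was dropped, to -0.06, when control replicate 2 was. It was 0.48 against NMDA + PBS replicate 1 alone, so its direction depended on the control libraries. The retained-intron ENSMUST00000162912, with between 51.7 and 76.2% of the gene, had 2.47, 9.05 and 7.83 FPKM in NMDA + PBS and 4.20, 6.20 and 2.77 FPKM in NMDA + SCF, and overlapped. The processed transcript ENSMUST00000159784 was lower without overlap, with 3, 4 and 4 fragments in NMDA + PBS and 1, 0 and 2 in NMDA + SCF. The processed transcript ENSMUST00000161593 overlapped and had a log2 fold change of 0.37, with 2, 4 and 5 against 2, 10 and 4 fragments.

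Slc38a1 encodes a glutamine transporter of neurons. It had 7.06, 8.92 and 14.3 FPKM in NMDA + PBS and 6.61, 5.02 and 5.92 FPKM in NMDA + SCF. All NMDA + SCF libraries lay below all NMDA + PBS libraries, with a narrow gap to replicate 1. NMDA + PBS averaged 10.1 ± 3.77 FPKM and NMDA + SCF 5.85 ± 0.795 FPKM (SD, n = 3 each). The log2 fold change was -0.65 ± 0.29 (SE), and limma gave an adjusted p of 0.535. It was -0.39 without NMDA + PBS replicate 3, -0.39 in voom and -0.24 against NMDA + PBS replicate 1 alone. Its retained-intron transcript ENSMUST00000230607 (chr15:96578534-96579584) had 4, 3 and 6 fragments in NMDA + PBS and 0 in every NMDA + SCF library. With each NMDA + SCF library set to a floor of 3 fragments it was 1.26-fold lower in NMDA + SCF. This takes the NMDA + PBS mean, itself of few fragments, as exact. The value was 1.11-fold without NMDA + PBS replicate 3, and NMDA + PBS replicate 2, at 1.49 FPKM, lay under the floor itself. The coding ENSMUST00000088452 had 1.98, 1.63 and 2.39 FPKM in NMDA + PBS and 1.49, 1.58 and 0.995 FPKM in NMDA + SCF, without overlap. The retained-intron ENSMUST00000230756 overlapped, between 2.19 and 5.05 FPKM in NMDA + PBS and between 2.74 and 4.65 FPKM in NMDA + SCF. The coding ENSMUST00000100262 had 0.0923, 0.0790 and 3.61 FPKM in NMDA + PBS and at most 0.0903 FPKM in NMDA + SCF, with 51 fragments and 25.2% of the gene in NMDA + PBS replicate 3. The retained-intron ENSMUST00000229253 overlapped and had at most 11 fragments in a library.

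Slc38a3 encodes a glutamine transporter of Müller glia. It had 23.0, 42.3 and 31.2 FPKM in NMDA + PBS and 38.2, 30.9 and 48.6 FPKM in NMDA + SCF, with overlapping groups and a log2 fold change of 0.30 ± 0.27 (SE) and an adjusted p of 0.706 in limma. It was 0.08 without NMDA + PBS replicate 1, 0.51 without NMDA + PBS replicate 2, 0.45 without NMDA + SCF replicate 2, 0.13 without NMDA + SCF replicate 3, 0.17 with upper quartile scaling, 0.53 in voom and 0.72 against NMDA + PBS replicate 1 alone. With all listed transcripts it was -0.02. That sum takes in the coding transcripts of list B only, ENSMUST00000010208 with 16.4 and 4.88 FPKM and ENSMUST00000195843 with 0.394 and 7.41 FPKM in NMDA + PBS replicates 2 and 3. The transcripts of the gene went different ways. ENSMUST00000194895, a retained intron (chr9:107651157-107669003), had 16.0, 24.6 and 9.70 FPKM in NMDA + PBS and 32.0, 23.2 and 35.3 FPKM in NMDA + SCF, and the groups overlapped through NMDA + PBS replicate 2. ENSMUST00000193495, a processed transcript (chr9:107659219-107669013), had 1, 16 and 28 fragments in NMDA + PBS and 0 in every NMDA + SCF library. With each NMDA + SCF library set to a floor of 3 fragments it was 4.08-fold lower, the NMDA + PBS mean again taken as exact. The value was 2.49-fold without NMDA + PBS replicate 3, and NMDA + PBS replicate 1, at 0.471 FPKM, lay under the floor itself. The coding ENSMUST00000167868 overlapped, with 6.53 to 11.3 FPKM in NMDA + PBS and 6.30 to 12.9 FPKM in NMDA + SCF.

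Of the 59 annotated transcripts of the 9 genes, 41 were listed, 28 of them in both lists, 6 restricted to list A and 7 to list B. Of 26 protein-coding transcripts 8 were in neither list, and 3 of the 9 genes (Slc1a1, Slc17a7 and Glud1) had no coding transcript in both. Among 27 transcripts tested, 0 passed an adjusted p of 0.05 in limma and 5 had an unadjusted p of at most 0.05, against 7.98% of 45261 transcripts, 2 higher and 3 lower in NMDA + SCF. The higher ones were those of Slc1a7 and Slc38a3 with a retained intron. The lower ones were Slc1a2 ENSMUST00000080210, Slc38a1 ENSMUST00000230607 and Slc38a3 ENSMUST00000193495, of which the first and the last were also near 0 in NMDA + PBS replicate 1.

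**Figure D2:**
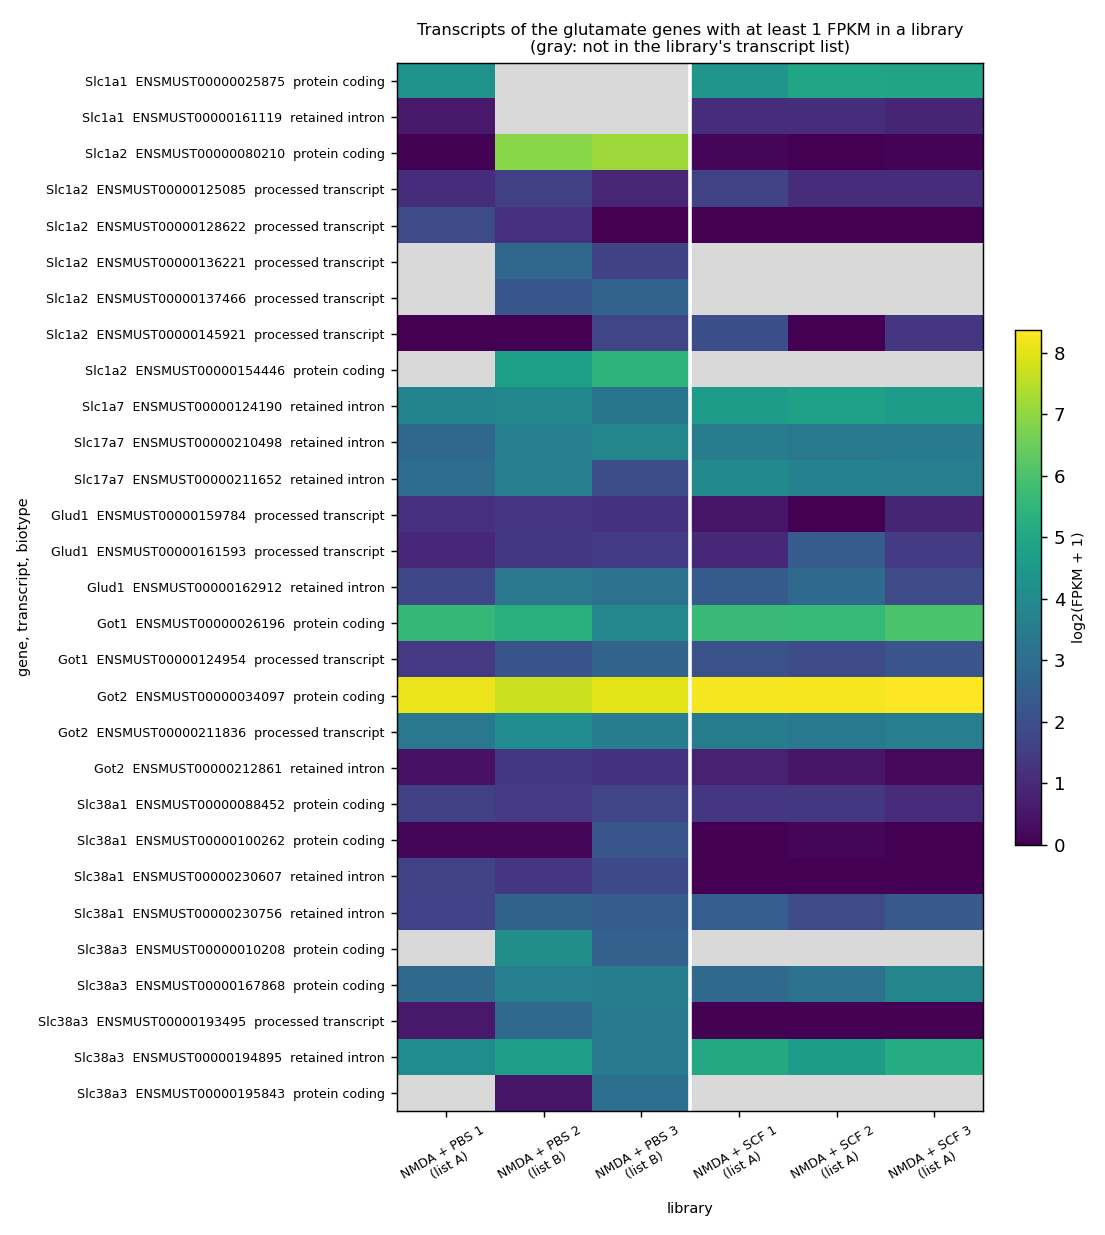
Transcripts of the glutamate genes (rows) in the 6 libraries (columns) as log2(FPKM + 1) in color, with gray where a transcript is not in the library's list. Slc1a2 ENSMUST00000080210 is high in NMDA + PBS replicates 2 and 3 only, and Slc38a1 ENSMUST00000230607 is at 0 in the 3 NMDA + SCF libraries.

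The other genes of the pathway were 43, of which 39 could be tested. Limma called 0 of them at an adjusted p of 0.05, and 1 higher and 4 lower genes had an unadjusted p of at most 0.05, against 9.24% of all genes. Their median log2 fold change was 0.07. The number at an unadjusted p of at most 0.05 moved to 13 when NMDA + PBS replicate 1 was left out, against 17.4% of all genes, and to 1, 2, 2, 2 and 3 for NMDA + PBS replicates 2 and 3 and NMDA + SCF replicates 1, 2 and 3, where 7.98, 5.45, 5.50, 5.14 and 4.61% of all genes had such a p. Slc7a6, a carrier of cationic and neutral amino acids, had 8.62, 7.94 and 6.57 FPKM in NMDA + PBS and 10.8, 11.3 and 12.7 FPKM in NMDA + SCF, without overlap. The vesicular transporter Slc17a6, a ganglion cell marker, had 0.142, 5.90 and 8.74 FPKM in NMDA + PBS and 0.0706, 0 and 0.353 FPKM in NMDA + SCF. Slc25a11, the mitochondrial oxoglutarate carrier of the shuttle, had 1.14, 63.1 and 44.0 FPKM in NMDA + PBS and 0, 0.373 and 0.695 FPKM in NMDA + SCF. Aldh5a1, which ends the breakdown of GABA, had 0.780, 21.7 and 24.8 FPKM in NMDA + PBS and 0.620, 0.560 and 0.512 FPKM in NMDA + SCF. These 3 genes were split by transcript list as Slc1a2 was, with NMDA + PBS replicate 1 close to the NMDA + SCF libraries. Gclc, of glutathione synthesis, had at most 0.363 FPKM in NMDA + PBS and was listed at 0 in NMDA + SCF, too low for a fold.

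The genes of highest mean in each pathway list had overlapping groups. Glul, the glutamine synthetase of Müller glia, had 3899, 1960 and 2202 FPKM in NMDA + PBS and 3148, 3178 and 2993 FPKM in NMDA + SCF. Slc1a3, the glial glutamate transporter, had 58.7, 48.0 and 36.7 FPKM and 58.6, 68.6 and 65.2 FPKM in the same order. NMDA + PBS replicate 1 was level with the lowest NMDA + SCF library for Slc1a3 and highest of all for Glul. Oat, which makes glutamate from ornithine, ranged from 209 to 316 FPKM in NMDA + PBS and from 293 to 344 in NMDA + SCF. Mdh1, the cytosolic malate dehydrogenase, ranged from 180.0 to 287 and from 213 to 267 FPKM, the amino acid carrier Slc7a5 from 52.5 to 75.0 and from 69.6 to 72.9 FPKM, and the vesicular transporter Slc17a8 from 1.25 to 4.09 and from 3.21 to 3.29 FPKM.

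By list, the other plasma membrane carriers had 4 of 5 genes with a positive log2 fold change and a median of 0.44. The other vesicular carriers had 1 of 2 and a median of -0.79, between Slc17a8 at 0.33 and Slc17a6 at -1.91. Slc17a6 was split by transcript list and was at -0.01 against NMDA + PBS replicate 1 alone. The other glutamine carriers had 5 of 8 and 0.14, and glutamine synthesis and hydrolysis had 3 of 4 and 0.17. The other transaminases and glutamate-derived synthesis had 7 of 13 and 0.03, and the mitochondrial carriers and the shuttle had 3 of 7 and -0.18.

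The genes most like each member in pattern were found by Pearson correlation of log2(FPKM + 1) over the 6 libraries, among 7023 genes with a mean of at least 5 FPKM. They are a description, since libraries share a treatment and a list. For Slc1a7 they were Endod1 (r = 0.998) and Srd5a1 (r = 0.995). For Slc1a2 they were Usp32 (0.997) and Hmgn5 (0.996), both with low values in NMDA + PBS replicate 1. For Got1 they were Gm10638 (0.996) and Slc25a23 (0.995), and for Got2 Whrn (0.990) and Eif4b (0.989). For Slc38a1 they were Gnb1 (0.999) and Stard7 (0.993), and for Slc38a3 Srcap (0.993) and Gm47950 (0.990). For Slc17a7 they were Pnn (0.989) and Eif5a (0.978), and for Glud1 Dnajc13 (0.981) and D930016D06Rik (0.972).

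Other marker lists are given by their summed FPKM, as ranges in NMDA + PBS and then NMDA + SCF. Ganglion cells ranged from 227 to 464 and from 261 to 319, and Slc17a6 is among their markers. Cones ranged from 56.8 to 96.7 and from 67.5 to 73.0, cone type bipolar cells from 172 to 279.6 and from 216 to 240.2, and horizontal cells from 52.4 to 76.3 and from 57.5 to 65.5. Amacrine cells ranged from 58.8 to 87.0 and from 72.7 to 81.3. Reactive glia and astrocytes ranged from 43.7 to 283 and from 118 to 222, and microglia and macrophages from 36.3 to 291 and from 219.5 to 302, with NMDA + PBS replicate 3 lowest in both. Vessels ranged from 132 to 171 and from 161 to 208, red blood cells from 26.4 to 49.8 and from 47.5 to 236, and pigment epithelium from 208 to 886 and from 767 to 979. Ciliary body and iris ranged from 10.4 to 12.1 and from 18.1 to 25.1, and cornea and conjunctiva from 13.1 to 46.3 and from 3.13 to 11.98, both without overlap. Their part in the glutamate genes was not tested.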

How the data were processed

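Retinal RNA of 6 libraries was analysed from the deposited FPKM per transcript. Read counts, and the percent of high-quality bases, came from a deposited table of library totals. The submitters' processing notes name mm9, but the transcript positions equal those of GENCODE M21 (GRCm38) for between 98.1 and 98.19% of the Ensembl transcripts, and GRCm38 coordinates are used. The aligner is not given in the sources used here. Merged transcripts with no gene name held between 8.85 and 11.4% of a library's FPKM and were left out. FPKM was summed per gene over transcripts in both lists, and log2(FPKM + 1) was fitted with limma 3.58.1 in R 4.3.3 (variance trend, condition only, Benjamini-Hochberg adjustment over all genes, no filter but a value above 0 in 1 library), after a test on simulated data. Tables and figures were made in Python 3.11.15. Members and lists were chosen with earlier results of these data known. The genes named are all members, genes of the 6 pathway lists with an unadjusted p of at most 0.05 or the highest mean of a list, the 2 genes most like each member, and transcripts with at least 10% of a member's FPKM or an unadjusted p of at most 0.05. Of the 16 marker lists 1 is not reported here, and the others are named where their values are given. Alternatives were 2 scalings, a pseudocount of 0.1, a filter of 1 FPKM in 3 libraries, all listed transcripts, the transcript list as a term, voom on recovered fragments, a replicate block and each library left out. Leaving out libraries for groups that do not overlap was chosen after seeing the data. Floors of 3 fragments cover only the counting error of values at 0, and not that of the NMDA + PBS means.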

Additional observations from a re-analysis of the deposited data

Results flagged for a closer look

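The Slc1a1 values given here lie outside the gene sums, since its transcripts are in list A only and are not used in the comparison. Transcripts of list B only were outside the sums too. Among them was the coding Slc1a2 ENSMUST00000154446, with 25.3 and 42.1 FPKM in NMDA + PBS replicates 2 and 3. The coding Slc1a1 transcript ENSMUST00000025875 (chr19:28835074-28913960) had 18.4 FPKM in NMDA + PBS replicate 1 against 19.5, 29.3 and 28.9 FPKM in NMDA + SCF, a mean of 25.9 FPKM. It was counted from 238 fragments in NMDA + PBS replicate 1 and 254, 388 and 380 in NMDA + SCF. The retained-intron transcript ENSMUST00000161119 of the same gene had 3 fragments in NMDA + PBS replicate 1 and 7, 7 and 5 in NMDA + SCF, a mean of 1.04 FPKM. In both, every NMDA + SCF library lay above the only control library of list A, with no test possible. For gene sums of that list the share was 24.2%, and a share over single transcripts was not taken. The retained-intron ENSMUST00000162189 had 0 fragments in NMDA + PBS replicate 1 and 2, 5 and 0 in NMDA + SCF.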

How the results depend on the processing

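Every fitted sign of the 8 members held under both scalings, the pseudocount of 0.1, the filter of 1 FPKM in 3 libraries, voom, the replicate block and each library left out. The exceptions were Glud1 at 0.48 against NMDA + PBS replicate 1 alone (the transcript list as a term) and Slc38a3 at -0.015 with all listed transcripts. In the former setting Glul was at -0.33 and Mdh1 at -0.27. The cause of the turn was not tested for Glud1, Glul and Mdh1, and for Slc38a3 the setting adds coding transcripts of list B. With a pseudocount of 0.1 the Got1 transcript ENSMUST00000124954 was at 0.031.

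With each library left out in turn, 0 to 1 members and 0 to 909 of all genes had an adjusted p of at most 0.05 in limma, and 0 to 192 genes also passed a 2-fold change and 0.001, each highest without NMDA + PBS replicate 1. Unadjusted p-values of at most 0.05 were found for 1 to 5 members, 1 to 13 other pathway genes and 3 to 9 member transcripts, against 4.61 to 17.4% of all genes and 4.32 to 14.4% of all transcripts, and 0 to 2 member transcripts passed an adjusted p of 0.05. Other pathway genes at an unadjusted p of at most 0.05 were 2 with the filter and 2 with voom, against 11.7 and 10.4% of all genes, and voom gave 2 of all genes at an adjusted p of 0.05. Groups did not overlap for 2 members with median-of-ratios scaling, Slc1a7 and Slc38a1, and, in fits chosen after seeing the data, for 4 to 6 with a library left out. The shares of all genes were 12.9% and 20 to 32.4%.

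The replicate block left 0 members and 0 member transcripts at an adjusted p of 0.05. Same-numbered libraries had correlations of -0.041, -0.039 and -0.064 between their deviations from group means. The deviations in NMDA + PBS held the split by transcript list, which the NMDA + SCF libraries did not have. These correlations therefore cannot show whether the numbers pair the libraries.

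Transcripts whose sign turned with a library left out had log2 fold changes from -0.11 to 0.29 (Slc1a2 ENSMUST00000125085), from -0.29 to 0.22 (Slc17a7 ENSMUST00000210498), from -0.043 to 0.71 (Glud1 ENSMUST00000161593), from -0.34 to 0.29 (Got1 ENSMUST00000124954), from -0.009 to 0.25 (Slc38a1 ENSMUST00000229253), from -0.26 to 0.20 (Slc38a1 ENSMUST00000230756) and from -0.36 to 0.11 (Slc38a3 ENSMUST00000167868). The depth of 3404337 to 4440584 fragments limits transcripts with few fragments, and why other reads were not counted was not tested.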
